A study of Mus musculus with 45 samples.

Results

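Genes of sterol and fatty acid metabolism were followed through 4 treatments of mouse microglia and brain tissue. The group holds 39 named genes of the 42929 genes listed in all 3 count tables, and each was found by matching its symbol to its Ensembl identifier with the GENCODE M21 annotation. It is made of 7 genes of the mevalonate pathway, 11 genes of the steps from squalene to cholesterol, 4 genes of sterol sensing, 9 genes of fatty acid synthesis, desaturation and elongation, and 8 genes of the liver X receptors (LXR), cholesterol efflux and uptake control, oxysterols, esterification and transport. The data are RNA sequencing of 45 samples from C57BL/6 mice in 7 groups. Slice microglia were sorted as CD11b high and CD45 intermediate cells from organotypic brain slices of neonatal mice. These slices had been kept for 2 weeks in a medium with horse serum and PDGF, and then for 24 h with medium only (n = 9), TNF at 50 ng/mL (n = 11) or GM-CSF at 20 ng/mL (n = 9), with a few separately treated slices pooled for each sample. Adult microglia were sorted with the same gate from mice of 10 to 15 weeks, 24 h after an injection of lipopolysaccharide (LPS) at 1 mg/kg (n = 4) or of PBS (n = 4). Whole brain tissue came from mice of 10 to 15 weeks too, 24 h after LPS at 1 mg/kg (n = 4) or with no treatment (n = 4). The brain controls were thus not injected, and the microglia controls were. By the study's description the adult samples come from separate mice and the slice samples from several independent experiments. The labels do not say which animals or which experiment a slice sample came from, so p-values for slices measure the spread between samples. Slice samples carry a title code (1A, 1B, 2A or 2B) that the labels do not explain, and the slice fit has no term for it. With the code as a covariate, 6 members passed with TNF, 7 with GM-CSF and 7 between the cytokines, as many as without it.

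Cells build cholesterol from acetyl-CoA through mevalonate and squalene, and they build fatty acids from the same acetyl-CoA. The genes for both are switched on by the membrane-bound factors SREBP-2 (Srebf2) and SREBP-1 (Srebf1), which SCAP carries out of the endoplasmic reticulum when sterols are scarce and which the Insig proteins hold back when sterols are plentiful. Oxysterols, which are oxidised forms of cholesterol, bind the LXR proteins (Nr1h2 and Nr1h3), and these raise cholesterol efflux pumps such as Abca1 and Abcg1. In the brain, cholesterol is made locally, largely by astrocytes and by oligodendrocytes that build myelin, and microglia take up and export lipid from debris.

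A library held 5973364 to 9165485 counts for slice microglia, 11391577 to 14216034 for adult microglia and 8199881 to 10368603 for whole tissue. Levels are given as CPM, counts scaled to the size of the library (TMM-scaled). A gene passed the test when edgeR's quasi-likelihood test gave an adjusted p under 0.05 over all genes and the fold was over 1.5. All 8 microglial markers were detected in every group, with a summed level of 19650 to 26600 CPM in medium slices, 54700 to 60960 CPM in PBS microglia and 284 to 325 CPM in untreated brain tissue. This sum was 10300 to 12880 CPM with TNF, 14170 to 15710 CPM with GM-CSF and 37780 to 43450 CPM in LPS microglia. Between PBS and LPS microglia other lists moved as well: the 7 neutrophil markers summed to 40.6 to 83.6 and 1.61 to 8.46 CPM, the 6 endothelial markers to 41.8 to 50.3 and 14.9 to 17.6 CPM, and the 6 border macrophage markers to 10.1 to 15.7 and 27.3 to 44.5 CPM. The 6 astrocyte markers summed to 254 to 279.7 and 146 to 181 CPM, the 6 oligodendrocyte markers to 179 to 202 and 136 to 156 CPM, and the 5 monocyte markers to 11.1 to 15.5 and 4.22 to 6.78 CPM. Of the 6 border macrophage markers, 5 averaged under 1 CPM with PBS and 3 with LPS. Of the 6 astrocyte markers, 5 averaged under 1 CPM with PBS and 4 with LPS. Among the 2 of them tested, 1 fell (log2 fold change -0.74) and the other gave 0.71 and did not pass. The part of all these marker lists in the results was not tested. In the brain table, 164 of 8658 protein-coding genes with at least 1000 counts in adult microglia were listed at 0 in every library, and 3 unbroken runs of 59, 57 and 46 such genes covered stretches of chromosomes 1 and 2. Soat1 (chr1:156424525-156474331, minus strand, mm10) lies in the run of 57 genes, so its 0 in brain tissue is not read as a level and no fold is given for it there.

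The sequences just before the transcription start of 5 members are shown because these genes recur in the LPS responses described further on. RefSeq (GRCm38.p6) windows of 250 bases before to 50 bases after the start were found for 31 of the 39 members, in 38 windows. None was found for Sqle, Fdps, Fdft1, Scd1, Scd2, Stard4, Fads1 and Abcg1. The 150 bases before the start are printed 5′ to 3′ in the direction of transcription, with capitals marking each NF-Y box (CCAAT or its complement, bound by NF-Y, a usual partner of SREBP) and the core of a sterol regulatory element (TCACNCCAC, bound by SREBP).
Hmgcs1, chr13:119690201-119690350, plus strand: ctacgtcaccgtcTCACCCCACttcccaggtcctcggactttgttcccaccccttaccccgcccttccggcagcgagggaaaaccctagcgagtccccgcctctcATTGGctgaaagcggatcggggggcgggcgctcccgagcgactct
Mvd, chr8:122443423-122443572, minus strand: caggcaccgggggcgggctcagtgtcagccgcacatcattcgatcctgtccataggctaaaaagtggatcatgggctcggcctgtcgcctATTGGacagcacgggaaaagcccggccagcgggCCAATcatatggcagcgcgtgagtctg
Idi1, chr13:8885456-8885605, plus strand: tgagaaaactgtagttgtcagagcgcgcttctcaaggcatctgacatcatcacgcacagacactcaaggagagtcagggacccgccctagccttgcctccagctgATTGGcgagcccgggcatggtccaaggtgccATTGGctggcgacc
Hsd17b7, chr1:169969206-169969355, minus strand: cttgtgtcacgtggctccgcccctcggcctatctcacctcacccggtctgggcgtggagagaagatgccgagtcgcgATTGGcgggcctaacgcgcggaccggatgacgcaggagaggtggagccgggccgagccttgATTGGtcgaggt
Fasn, chr11:120824548-120824697, minus strand: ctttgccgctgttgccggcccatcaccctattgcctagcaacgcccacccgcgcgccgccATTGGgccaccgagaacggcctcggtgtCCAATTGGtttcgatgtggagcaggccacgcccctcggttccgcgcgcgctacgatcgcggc
The sterol regulatory element core was found in Hmgcs1, from base -137 to base -129, and in no other member with a window, which is 3.23% of members against 1.44% of all 27025 genes with a window. An NF-Y box was found in 22 of 31 members (71%) against 41.1% of all genes, and a GC box (GGGCGG, bound by Sp1) in 23 of 31 (74.2%) against 38.2%. The E-box CACGTG was found in 7 of 31 members (22.6%) against 8.09% of all genes. A direct repeat of AGGTCA with a spacer of 4 bases, the LXR type of site, with up to 2 mismatches, was found in 1 of 31 members (3.23%), Dhcr7, against 3.47% of all genes. All motifs were searched on both strands. Among the 14 members with a window that rose with LPS in adult microglia, 11 held an NF-Y box, as did 11 of the other 17. These counts describe letters in a window and say nothing of binding.

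In the control groups the members differed widely in level. Per length, the highest in PBS microglia were Mylip, a ubiquitin ligase that limits cholesterol uptake, at 98.6 ± 1.82 CPM per kb (SD, n = 4), Acly, which makes cytosolic acetyl-CoA from citrate, at 57.4 ± 5.59, and the efflux pump Abca1 at 35.4 ± 5.12 CPM per kb. In medium slices the order was led by Scd2, a fatty acid desaturase, at 153 ± 31.9 CPM per kb (n = 9), followed by Acly at 70.1 ± 8.22 and Mylip at 48.9 ± 9.86 CPM per kb. In untreated brain tissue it was led by Scd2 at 359 ± 11.9 CPM per kb (n = 4), by Hmgcs1, which makes the HMG-CoA of the mevalonate pathway, at 69.6 ± 1.56, and by Scd1, the other main desaturase, at 52.8 ± 1.71 CPM per kb. Scd1 was close to absent from the sorted cells: the PBS microglia held 0, 0.144, 0.0805 and 0 CPM, the medium slices ran from 0 to 3.37 CPM (median 0.137), and the untreated brain tissue held 267, 247, 262 and 257 CPM. The desaturase Fads2 and the elongase Elovl6 averaged 0.01795 and 0.418 CPM in PBS microglia and 87.4 and 68.6 CPM in untreated brain tissue. The 18 genes from Acat2 to Dhcr7 that make cholesterol summed to 319.9 to 359 CPM in PBS microglia, 518 to 643 CPM in medium slices and 1042 to 1080 CPM in untreated brain tissue. These levels come from 3 tables scaled separately, so they are set side by side without a test.

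**Figure D1:**
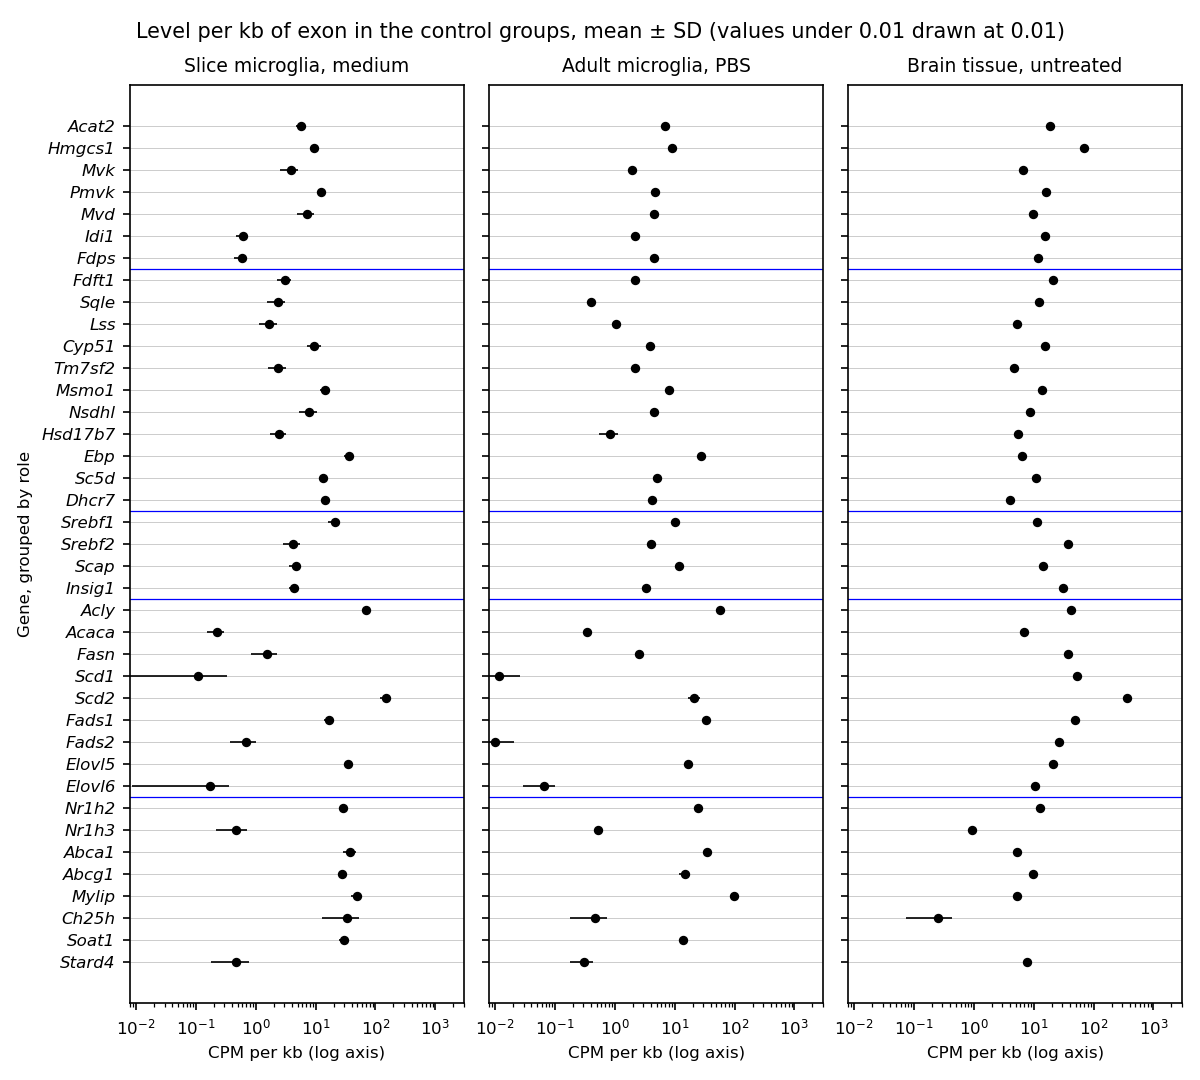
Level per kb of exon (CPM per kb, log axis) of each gene in the 3 control groups, with points for the mean and lines for the SD over samples (n = 9, 4 and 4). Scd2 is the highest in medium slices and in brain tissue, while Scd1 and Elovl6 are near 0 in both kinds of microglia and not in brain tissue. Soat1 is left out for brain tissue.

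The number of members that passed the test differed between treatments. With LPS in adult microglia, 16 of the 36 members above the count filter rose and 0 fell, against 14.4% of 12987 genes that rose and 27.4% that passed in either direction, and the members' median log2 fold change was 0.55 against 0.01 over all genes. DESeq2 and limma-voom also gave 16 higher and 0 lower, and 5 members were lower at an unadjusted p under 0.05 by each of these tools. With no limit on the fold, 20 were higher and 5 lower at an adjusted p under 0.05, against 26.7% and 24.9% of all genes. In brain tissue with LPS, 1 of 38 members rose and 3 fell, against 2.63% and 0.550% of 15083 genes, and the median was -0.28 against 0.00 over all genes. With no limit on the fold, 22 of 38 were lower and 2 higher there at an adjusted p under 0.05, against 4.10% and 6.06% of all genes. In slice microglia, TNF raised 4 of 37 members and lowered 2, against 9.10% and 11.7% of 11313 genes. GM-CSF raised 5 of 37 and lowered 2, against 4.84% and 5.96%. Scaled by total counts alone, all genes split into 814 higher and 460 lower with GM-CSF, where TMM gave 548 and 674, and the members stayed at 5 and 2. With no limit on the fold, TNF gave 8 higher and 8 lower against 19.9% and 19.7% of all genes, and GM-CSF 5 and 6 against 12.1% and 13.4%. The members' medians in slices were 0.10 for TNF and 0.05 for GM-CSF, against -0.03 and -0.04 over all genes.

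**Figure D2:**
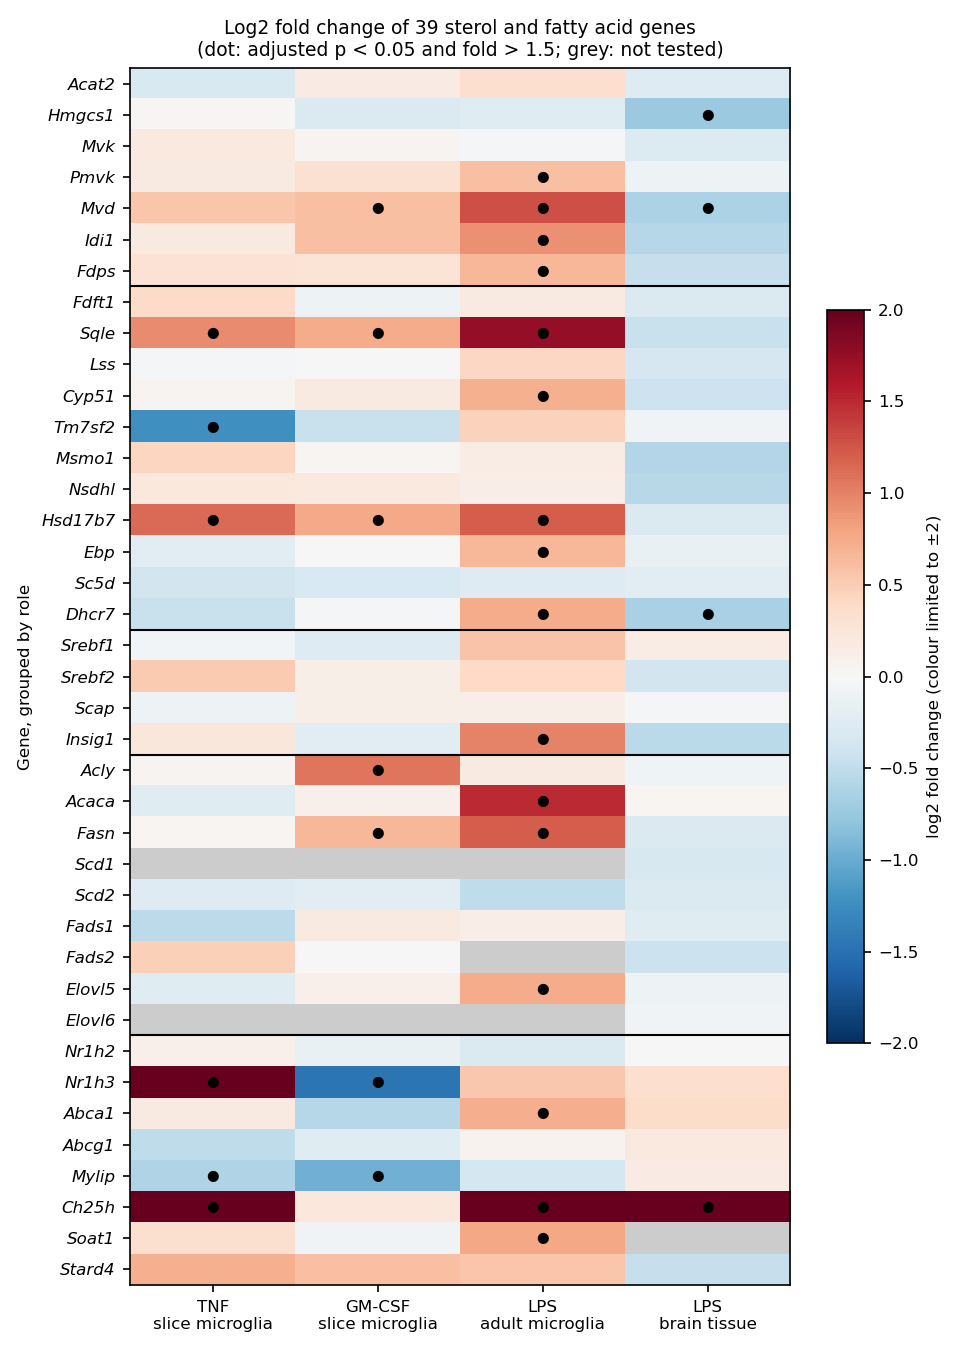
Log2 fold change of the 39 genes (one line each, grouped by role) in the 4 treatments (columns), with colour limited to ±2. Dots mark genes that passed the test, 16 in adult microglia with LPS, 4 in brain tissue with LPS, 6 with TNF and 7 with GM-CSF, and grey marks genes under the count filter.

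In adult microglia, LPS raised 4 of 7 genes of the mevalonate pathway. Mvd, the decarboxylase that yields isopentenyl diphosphate, was at 8.04, 7.76, 10.1 and 8.36 CPM in the PBS samples and at 22.6, 16.9, 19.95 and 24.4 CPM in the LPS samples. All LPS samples lay above every PBS sample, at 1.29 (SE 0.14, adjusted p = 1.72e-05) on the log2 scale. Idi1, which isomerises isopentenyl diphosphate, went from 7.71 ± 0.388 to 14.6 ± 1.32 CPM (mean ± SD, n = 4 each, log2 fold change 0.92, SE 0.12, adjusted p = 7.59e-05). Fdps, which joins these units into farnesyl diphosphate, rose by 0.66 (SE 0.09, adjusted p = 8.37e-05) on the log2 scale, and Pmvk, a kinase of the pathway, by 0.61 (SE 0.13, adjusted p = 0.00182). Hmgcs1 was at 42.3, 41.8, 39.6 and 39.4 CPM with PBS and at 34.4, 36.7, 32.5 and 34.1 CPM with LPS. Every LPS sample was below every PBS sample, but the log2 fold change of -0.24 (SE 0.08, adjusted p = 0.0169) was under the limit on the fold. Acat2 and Mvk, the acetyl-CoA thiolase and the mevalonate kinase, did not pass, with log2 fold changes of 0.33 (SE 0.15) and -0.02 (SE 0.17).

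Of the 11 genes from squalene to cholesterol, LPS raised 5 in adult microglia and lowered 0. The largest of these changes was in Sqle, the squalene epoxidase. Its PBS samples held 2.08, 2.52, 2.34 and 1.87 CPM and its LPS samples 8.53, 7.02, 6.22 and 8.02 CPM, with a wide gap between the groups. The log2 fold change was 1.76 (SE 0.20, adjusted p = 2e-05), a 3.38-fold increase, from 119 counts in the PBS samples together. Hsd17b7, a ketoreductase of the late steps, was at 6.25, 4.46, 3.38 and 3.03 CPM with PBS and at 10.4, 7.62, 10.7 and 10.8 CPM with LPS. The groups did not overlap, and the log2 fold change was 1.21 (SE 0.23, adjusted p = 0.000907). Dhcr7, the last reductase before cholesterol, rose by 0.74 (SE 0.12), Cyp51, the lanosterol demethylase, by 0.71 (SE 0.11), and Ebp, a sterol isomerase, by 0.66 (SE 0.06) on the log2 scale, with adjusted p-values of 0.000258, 0.000252 and 6.78e-06. Fdft1, Lss, Tm7sf2, Msmo1, Nsdhl and Sc5d did not pass, with log2 fold changes from -0.26 for Sc5d to 0.46 for Tm7sf2. Together the 18 cholesterol genes summed to 449 to 467 CPM with LPS, above the 319.9 to 359 CPM with PBS.

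Of the sterol sensors, 1 of 4 passed in adult microglia. Insig1 rose from 11.4, 10.1, 9.67 and 9.44 CPM with PBS to 21, 18.3, 15.2 and 26.4 CPM with LPS, with no overlap (log2 fold change 0.99, SE 0.16, adjusted p = 0.000303). Srebf2 was at 25.4, 28.6, 27.95 and 32.4 CPM with PBS and at 38.1, 36.9, 35.5 and 39.7 CPM with LPS. Srebf1 was at 61.7, 56.2, 56.4 and 49.96 CPM and at 106, 75.1, 74.4 and 75.3 CPM. Neither factor's groups overlapped, but both log2 fold changes, 0.39 (SE 0.09, adjusted p = 0.00323) and 0.56 (SE 0.12, adjusted p = 0.00209), were under the fold limit. Scap, the escort of both factors, gave 0.12 (SE 0.07, adjusted p = 0.21).

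Of the fatty acid genes, 3 of 6 above the count filter rose with LPS in adult microglia. Acaca, the acetyl-CoA carboxylase that makes malonyl-CoA, went from 5.96, 4.96, 7.01 and 5.91 CPM to 15.8, 14.6, 16.5 and 19.7 CPM (log2 fold change 1.48, SE 0.15, adjusted p = 8.46e-06). Fasn, the fatty acid synthase that uses malonyl-CoA, went from 26.6, 26.7, 27.1 and 29.5 CPM to 62.3, 56.9, 61.2 and 72.4 CPM (log2 fold change 1.20, SE 0.09, adjusted p = 1.1e-06). In both, the lowest LPS sample was well above the highest PBS sample. Elovl5, an elongase of polyunsaturated fatty acids, rose by 0.74 (SE 0.08, adjusted p = 2.26e-05) on the log2 scale. Acly, with a log2 fold change of 0.18 (SE 0.08), and the desaturase Fads1, with 0.13 (SE 0.08), did not pass. Scd2 was at 154, 115, 104 and 95.5 CPM with PBS and at 94.1, 86.3, 65.5 and 83.5 CPM with LPS, every LPS sample below every PBS sample. Its log2 fold change of -0.51 (SE 0.16, adjusted p = 0.0207) was under the fold limit. Scd1 was at 0, 0.0856, 0 and 0.147 CPM with LPS and, like Fads2 and Elovl6, was under the count filter.

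The largest change of any member with LPS was in Ch25h, the enzyme that makes an oxysterol from cholesterol. Its level was 1.08, 0.862, 0.322 and 0.288 CPM in PBS microglia and 24.9, 10.2, 15.4 and 19.7 CPM in LPS microglia. The groups were far apart, at 4.75 (SE 0.40, adjusted p = 6.78e-06) on the log2 scale, from 35 counts in the PBS samples together to 928 in the LPS samples. Soat1, which esterifies cholesterol for storage, rose from 133 ± 6.72 to 226 ± 42.8 CPM (log2 fold change 0.77, SE 0.12, adjusted p = 0.000348). Abca1 was at 445, 349, 326 and 345 CPM with PBS and at 603, 439, 478 and 914 CPM with LPS. Of these LPS samples, 3 of 4 were above every PBS sample, and the log2 fold change was 0.73 (SE 0.23, adjusted p = 0.0308). That call was lost with no low-count filter, and without LPS replicates 1 or 4 or PBS replicates 2, 3 or 4. Abcg1, the other pump, gave 0.07 (SE 0.14, adjusted p = 0.71). Nr1h3 was at 1.44, 1.22, 1.53 and 1.15 CPM with PBS and at 2.26, 2.14, 1.92 and 1.47 CPM with LPS, groups that overlapped (log2 fold change 0.54, SE 0.27, adjusted p = 0.111). Nr1h2, the widely expressed LXR, gave -0.28 (SE 0.07, adjusted p = 0.0069) and Mylip -0.35 (SE 0.06, adjusted p = 0.000503), both under the fold limit. Stard4, a sterol carrier, gave 0.55 (SE 0.41, adjusted p = 0.276).

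**Figure D3:**
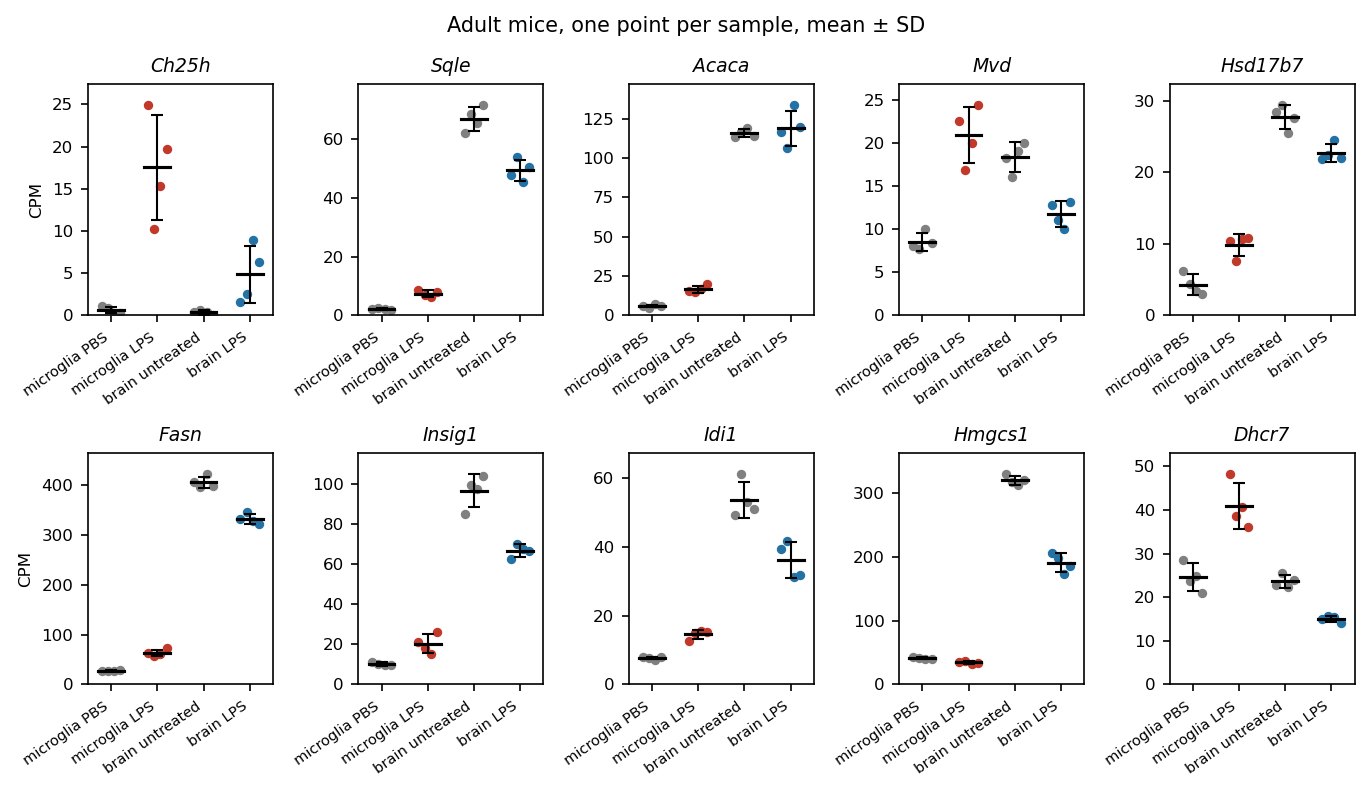
CPM of 10 genes in adult microglia (PBS grey, LPS red) and brain tissue (untreated grey, LPS blue), with a point per sample, n = 4 per group, and bars for the mean and SD, each axis from 0. Sqle, Mvd, Insig1, Idi1, Dhcr7 and Fasn lie higher with LPS in microglia and lower with LPS in brain tissue, while Ch25h lies higher in both.

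In brain tissue, LPS at the same dose and time went with lower levels of the cholesterol genes. All 18 genes from Acat2 to Dhcr7 had a negative log2 fold change there, where the median over all genes was 0.00. The share of all genes below 0 was not counted. Of the 18, 14 were lower at an adjusted p under 0.05, against 4.10% of all genes. The fold limit was also passed by 3, against 0.550% of all genes. Hmgcs1 was at 329, 318, 312 and 321 CPM in untreated tissue and at 206, 199, 173 and 186 CPM after LPS, with a wide gap between the groups (log2 fold change -0.74, SE 0.05, adjusted p = 1.52e-07). Dhcr7 was at 22.7, 25.6, 22.3 and 24.03 CPM and at 14.98, 15.8, 15.4 and 14.2 CPM (-0.65, SE 0.08, adjusted p = 9.92e-05). Mvd was at 18.3, 16.04, 19.04 and 20.1 CPM and at 12.9, 11.1, 10.03 and 13.1 CPM (-0.63, SE 0.11, adjusted p = 0.00126), and its call was lost without LPS replicate 3. Neither gene's groups overlapped. Sqle was at 61.9, 68.5, 65.3 and 71.4 CPM and at 47.7, 53.8, 45.2 and 50.6 CPM, also with no overlap, and its log2 fold change of -0.44 (SE 0.06, adjusted p = 0.000371) was under the fold limit. The same held for Msmo1, an oxidase of sterol methyl groups, at -0.58 (SE 0.07), Idi1 at -0.57 (SE 0.10) and Nsdhl, which acts on the product of Msmo1, at -0.55 (SE 0.08). The 18 genes summed to 1042 to 1080 CPM in untreated tissue and to 737 to 792 CPM after LPS.

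The sterol sensors and fatty acid genes had 0 calls in brain tissue by edgeR, DESeq2 and limma-voom. By edgeR, 2 of 4 and 5 of 9 were lower at an adjusted p under 0.05, against 4.10% of all genes. As many were lower at an unadjusted p under 0.05. Insig1 was at 85.04, 99.7, 97.3 and 104 CPM in untreated tissue and at 62.8, 70.1, 67.8 and 66.5 CPM after LPS (log2 fold change -0.53, SE 0.06, adjusted p = 5.12e-05). Srebf2 was at 271, 274, 268 and 274 CPM and at 224, 236, 177 and 205 CPM (-0.37, SE 0.07, adjusted p = 0.00743). Both had every LPS sample below every untreated sample. Srebf1 overlapped, at 65.4, 65.9, 63.9 and 65.1 CPM and 64.4, 71.1, 76.2 and 78.5 CPM (0.16, SE 0.06, adjusted p = 0.122). Fasn was at 407, 396, 421 and 397 CPM and at 333, 347, 328 and 323 CPM (-0.29, SE 0.04, adjusted p = 0.000108). The desaturases Scd1 and Scd2 were lower in every LPS sample, under the fold limit. Scd1 was at 267, 247, 262 and 257 CPM and 209, 202, 194 and 221 CPM (-0.32, SE 0.04, adjusted p = 0.000224). Scd2 was at 2055, 1932, 1952 and 1907 CPM and 1642, 1628, 1474 and 1644 CPM (-0.30, SE 0.04, adjusted p = 0.000121). Acaca, which rose in microglia, gave 0.04 (SE 0.06, adjusted p = 0.755).

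The genes of efflux and oxysterols in brain tissue had positive values for 6 of 7 tested members, where the median over all genes was 0.00. Ch25h rose from 0.402, 0.583, 0.414 and 0 CPM to 1.58, 2.59, 8.95 and 6.29 CPM, which is 14 counts in the untreated samples together and 167 in the LPS samples. The log2 fold change was 3.72 (SE 0.79, adjusted p = 0.0225), and the call was lost with limma-voom, with no low-count filter, and without LPS replicate 4 or untreated replicates 1, 2 or 3. Abca1 was at 56.4, 49.95, 56.5 and 57.4 CPM and at 68.2, 62.01, 79.8 and 74.8 CPM, with no overlap (log2 fold change 0.37, SE 0.07, adjusted p = 0.00439, under the fold limit). Nr1h3 overlapped, at 2.21, 1.94, 2.79 and 2.51 CPM and 3.798, 3.54, 2.297 and 2.25 CPM (0.33, SE 0.24, adjusted p = 0.439). Stard4 gave -0.46 (SE 0.07, adjusted p = 0.000706). Beside these values, the summed level of 6 oligodendrocyte markers was 6112 to 6688 CPM in untreated tissue and 4666 to 5530 CPM after LPS, with 5 of the 6 lower at an adjusted p under 0.05 and 2 past the fold limit, among them Mog at -0.74 (SE 0.16). The 6 astrocyte markers summed to 3870 to 4190 CPM and 4092 to 4397 CPM, with log2 fold changes from -0.44 to 1.36. Of these 6, 1 passed as higher and 1 was lower at an adjusted p under 0.05 but under the fold limit. The 6 neuronal markers summed to 6052 to 6229 CPM and 5617 to 6135 CPM, with 1 lower at an adjusted p under 0.05. The 8 microglial markers summed to 284 to 325 CPM and 237 to 395 CPM. Of these 8, 6 had positive values and 1 passed as lower, and the lowest value was -1.57. The 6 endothelial markers summed to 173 to 185 CPM and 197 to 287 CPM with 3 of 6 higher. The 6 border macrophage markers summed to 5.43 to 7.86 CPM and 9.31 to 13.2 CPM with 2 of 4 tested higher. Of these 6, 1 was at 0 in both brain groups, and markers were not checked against the runs of genes at 0. The 6 neutrophil markers listed for brain tissue summed to 0.503 to 1.55 CPM and 3.06 to 7.75 CPM with the 1 tested higher. In such bulk samples fewer cells of a type and less RNA per cell cannot be told apart, and the part of these markers in the lower sterol genes was not tested.

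The LPS effect in adult microglia and that in brain tissue were compared directly in a fit of both tables. The effect was higher in microglia for 18 of 39 members and lower for 0, against 9.10% of 16676 genes as higher and 19.7% in either direction, with a median difference of 0.70 on the log2 scale against -0.02 over all genes. DESeq2 and limma-voom gave 18 and 0 as well, though limma-voom did not call Stard4, and 2 members were lower at an unadjusted p under 0.05. With no limit on the fold, 24 were higher and 1 lower, against 14.5% and 16.3% of all genes. Of the 18 cholesterol genes, 15 were above 0 in microglia and below 0 in brain tissue, a split not counted over all genes. Of the 18, 12 passed the test of the difference. The largest differences among them were those of Sqle at 2.19 (SE 0.16, adjusted p = 9.58e-09), Mvd at 1.92 (SE 0.18, adjusted p = 2.15e-07) and Hsd17b7 at 1.49 (SE 0.22, adjusted p = 3.07e-05). Outside them, Insig1 differed by 1.52 (SE 0.17, adjusted p = 1.22e-06), Fasn by 1.48 (SE 0.09, adjusted p = 1.79e-09) and Srebf2 by 0.75 (SE 0.12, adjusted p = 5.72e-05). Srebf1 did not pass the fold limit, at 0.40 (SE 0.14, adjusted p = 0.0371). For Ch25h the difference was 1.02 (SE 1.12), so that a difference was not detectable at this depth. Library kit, read layout and the injection of the controls changed with the material and cannot be told apart from it. Soat1 has no usable value in brain tissue. It was still among the 39 members fitted and in their median, but not among the 18 whose effect differed. The same holds for Scd1, Fads2 and Elovl6, which were under the count filter in adult microglia.

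**Figure D4:**
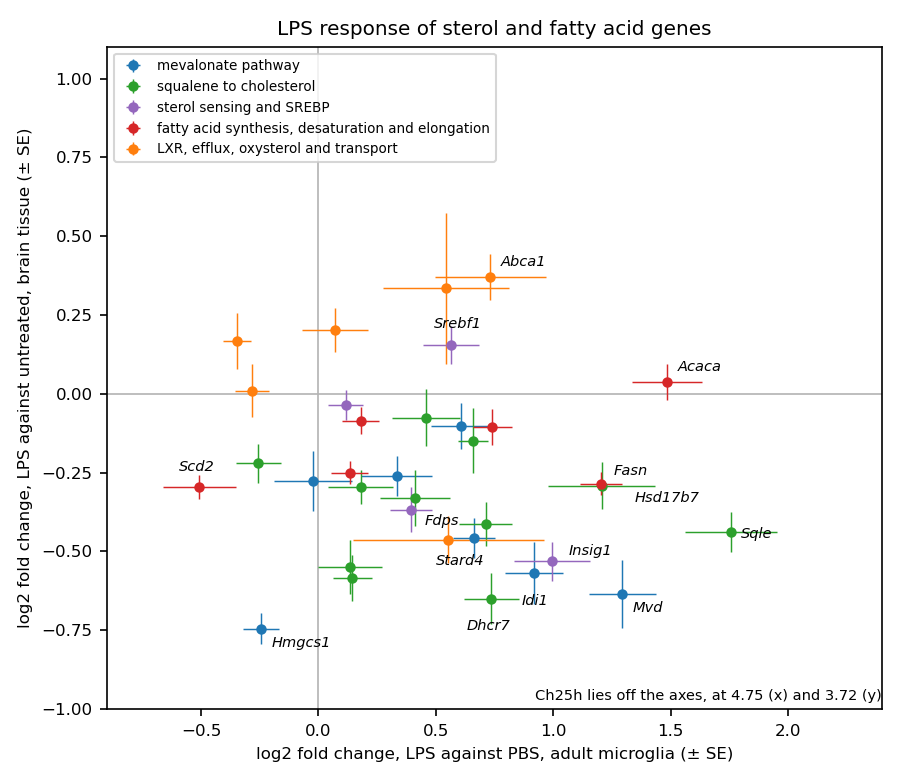
Log2 fold change with LPS in adult microglia (x axis) against that in brain tissue (y axis) for the members above the count filter in both, with bars of 1 SE and colours for the role. Of these 35 members, 23 lie above 0 in microglia and below 0 in brain tissue, a split not counted over all genes. Ch25h lies off the axes.

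In slice microglia, TNF raised Ch25h and Nr1h3 more than any other member. Ch25h ran from 13.98 to 91.4 CPM (median 34.9) in medium and from 582 to 1091 CPM (median 698) with TNF. No sample overlapped, and the log2 fold change was 3.99 (SE 0.31, adjusted p = 1.23e-11). With GM-CSF it ran from 29.3 to 109 CPM (median 49.5), which overlapped with medium (log2 fold change 0.22, SE 0.29, adjusted p = 0.649). Nr1h3, the LXR form of macrophages and liver, ran from 0 to 1.84 CPM (median 1.34) in medium, from 2.93 to 16.5 CPM (median 9.89) with TNF and from 0 to 0.941 CPM (median 0.394) with GM-CSF. All 11 TNF samples were above every medium sample (log2 fold change 3.09, SE 0.42, adjusted p = 1.72e-07). With GM-CSF the log2 fold change was -1.45 (SE 0.48, adjusted p = 0.0214), with overlapping samples and 81 counts in the 9 medium samples together and 29 in those with GM-CSF, and the call was lost with limma-voom and within the samples of either pair of title codes (1A and 1B, or 2A and 2B). TNF against GM-CSF gave 4.54 (SE 0.47, adjusted p = 6.25e-10) for Nr1h3 and 3.77 (SE 0.31, adjusted p = 3.95e-11) for Ch25h. Beside the lower microglial sums, other cell type markers moved in the slices. With TNF, 2 of 3 tested neutrophil markers rose, as did 1 of 5 oligodendrocyte, 1 of 3 endothelial and the 1 tested oligodendrocyte precursor marker, and 2 of 5 border macrophage, 1 of 6 astrocyte and 1 tested lymphocyte marker fell. The 4 oligodendrocyte precursor markers summed to 61.6 to 165 CPM in medium, 118 to 249 CPM with TNF and 47.6 to 129.5 CPM with GM-CSF, the 6 oligodendrocyte markers to 139 to 224, 150.3 to 308 and 109 to 181 CPM, the 7 neutrophil markers to 0.834 to 15.6, 3.57 to 116 and 3.19 to 40.6 CPM, and the 6 border macrophage markers to 289.7 to 698, 306 to 542 and 301 to 862 CPM. Of the 4 precursor markers, 3 averaged under 1 CPM in every slice group, so their sum rests mainly on 1 gene. With GM-CSF, 1 of 6 astrocyte markers and 1 tested lymphocyte marker fell. Between TNF and GM-CSF, 2 of 5 oligodendrocyte markers, 1 of 3 endothelial and the 1 tested precursor marker were higher with TNF, and 1 of 5 border macrophage markers was lower. The part of these markers in the slice results was not tested.

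The efflux pumps and Mylip, which are known LXR targets, did not pass the test as higher with TNF. Abca1 ran from 262 to 579 CPM (median 399.5) in medium, from 319 to 547 CPM (median 428) with TNF and from 168 to 345 CPM (median 267) with GM-CSF. The groups overlapped in part, with log2 fold changes of 0.18 (SE 0.12, adjusted p = 0.262) for TNF and -0.57 (SE 0.13, adjusted p = 0.000737) for GM-CSF, the latter just under the fold limit. Between TNF and GM-CSF, Abca1 differed by 0.75 (SE 0.12, adjusted p = 7.05e-06), a call lost with scaling by total counts. Abcg1 gave -0.51 (SE 0.07, adjusted p = 8.39e-07) with TNF and -0.25 (SE 0.08, adjusted p = 0.0178) with GM-CSF, under the fold limit. Mylip ran from 107 to 199 CPM (median 150.4) in medium, from 88.5 to 121 CPM (median 104) with TNF and from 75.3 to 86.2 CPM (median 80.8) with GM-CSF. It fell by 0.60 on the log2 scale with TNF (SE 0.09, adjusted p = 8.7e-07) and by 0.96 with GM-CSF (SE 0.09, adjusted p = 5.71e-10). All 9 GM-CSF samples were below every medium sample, as were 6 of 11 TNF samples, and the 1.51-fold decrease with TNF sits at the limit. That call was lost with limma-voom, with the replicate block and in the samples with title codes 2A and 2B.

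Of the cholesterol genes, Sqle and Hsd17b7 rose with both cytokines. Sqle ran from 5.33 to 19.2 CPM (median 13.5) in medium, from 19.02 to 36.8 CPM (median 24.1) with TNF and from 17.5 to 24.7 CPM (median 22.1) with GM-CSF. Of the TNF samples 10 of 11, and of the GM-CSF samples 6 of 9, lay above every medium sample, with log2 fold changes of 0.95 (SE 0.16, adjusted p = 1.17e-05) and 0.74 (SE 0.17, adjusted p = 0.00107). Hsd17b7 ran from 8.17 to 19.4 CPM (median 13.1) in medium, from 15.4 to 38.5 CPM (median 26.7) with TNF and from 13.04 to 32.7 CPM (median 18.9) with GM-CSF, with log2 fold changes of 1.13 (SE 0.18, adjusted p = 2.29e-06) and 0.75 (SE 0.18, adjusted p = 0.00171). Its TNF samples were above every medium sample in 10 of 11. Mvd ran from 7.99 to 19.1 CPM (median 12.6) in medium, from 10.1 to 25.4 CPM (median 20.4) with TNF and from 11.8 to 30.6 CPM (median 19.7) with GM-CSF. It rose with GM-CSF by 0.60 (SE 0.19, adjusted p = 0.0193) on the log2 scale, a 1.51-fold increase that sits at the limit. Its TNF value of 0.56 (SE 0.18, adjusted p = 0.0142) missed the fold limit. Between TNF and GM-CSF, Mvd did not differ by the test (-0.03, SE 0.18, adjusted p = 0.918). With GM-CSF, the calls of Hsd17b7 and Mvd were lost in the samples with codes 2A and 2B and that of Sqle in those with codes 1A and 1B.

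Tm7sf2, a sterol reductase, moved the other way with TNF. It ran from 6.37 to 16.5 CPM (median 9.05) in medium, from 0.358 to 6.75 CPM (median 4.94) with TNF and from 2.62 to 12.1 CPM (median 8.096) with GM-CSF. The TNF samples were below every medium sample in 9 of 11 (log2 fold change -1.22, SE 0.29, adjusted p = 0.000746), and they were lower than with GM-CSF (-0.78, SE 0.29, adjusted p = 0.0357), while GM-CSF overlapped with medium (-0.44, SE 0.30, adjusted p = 0.311). The call between TNF and GM-CSF was lost with the replicate block, within either pair of title codes and in a fit of these groups alone. The other cholesterol genes had log2 fold changes from -0.45 (Dhcr7) to 0.43 (Msmo1) with TNF and from -0.31 (Sc5d) to 0.61 (Idi1) with GM-CSF, and did not pass. Among them, Hmgcs1 ran from 34.1 to 51.7 CPM (median 42.8) in medium, from 36.5 to 52.1 CPM (median 45.02) with TNF and from 30.7 to 45.6 CPM (median 33.7) with GM-CSF, with log2 fold changes of 0.03 (SE 0.09, adjusted p = 0.831) and -0.28 (SE 0.10, adjusted p = 0.0288). The 18 genes together summed to 518 to 643 CPM in medium, 512 to 659 CPM with TNF and 518 to 664 CPM with GM-CSF, ranges that overlapped.

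By edgeR, DESeq2 and limma-voom, 0 of the 4 sterol sensors passed the test with either cytokine, and at an unadjusted p under 0.05 edgeR gave 1 as higher with TNF and 1 as lower with GM-CSF. Srebf2 ran from 17.5 to 45.01 CPM (median 28.2) in medium, from 15.9 to 54.7 CPM (median 46.5) with TNF and from 25.2 to 38.3 CPM (median 34.6) with GM-CSF. Its log2 fold change with TNF, 0.52 (SE 0.17, adjusted p = 0.012), was under the fold limit, and GM-CSF gave 0.12 (SE 0.17, adjusted p = 0.688). Insig1 ran from 10.4 to 18.98 CPM (median 13.5), from 9.76 to 20.7 CPM (median 15.6) and from 7.26 to 16.7 CPM (median 11.9) in the same order, with overlapping groups (0.23, SE 0.17, adjusted p = 0.31 for TNF and -0.23, SE 0.18, adjusted p = 0.393 for GM-CSF). Srebf1 ran from 82.97 to 166 CPM (median 116), from 86.8 to 131 CPM (median 114) and from 69.9 to 138 CPM (median 96.7), and its groups overlapped too (-0.06, SE 0.11, adjusted p = 0.71 and -0.26, SE 0.12, adjusted p = 0.103).

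Among the fatty acid genes, Acly separated GM-CSF from TNF. It ran from 298 to 431 CPM (median 383) in medium, from 282 to 456 CPM (median 388) with TNF and from 676 to 919 CPM (median 728) with GM-CSF. All 9 GM-CSF samples were above every medium sample and above every TNF sample, and the log2 fold change was 1.06 (SE 0.08, adjusted p = 3.83e-12) against medium and -1.01 (SE 0.08, adjusted p = 6e-13) for TNF against GM-CSF. Fasn ran from 5.53 to 31.7 CPM (median 15.9) in medium, from 8.07 to 27.5 CPM (median 17.1) with TNF and from 19.4 to 40.7 CPM (median 26.7) with GM-CSF, groups that overlapped. Its log2 fold change with GM-CSF was 0.66 (SE 0.24, adjusted p = 0.0431), a call lost with no low-count filter and within either pair of title codes, and with TNF it was 0.04 (SE 0.23, adjusted p = 0.919). TNF against GM-CSF gave -0.62 (SE 0.23, adjusted p = 0.0376) for Fasn and -0.71 (SE 0.11, adjusted p = 1.53e-06) for Fads1, which was lower than in every GM-CSF sample in 11 of 11 TNF samples. The Fasn call between the cytokines was lost with the replicate block and within either pair of title codes. Scd2 ran from 586 to 1176 CPM (median 825) in medium, from 491 to 883 CPM (median 658) with TNF and from 582 to 849.9 CPM (median 737) with GM-CSF, with log2 fold changes of -0.26 (SE 0.11, adjusted p = 0.0499) and -0.21 (SE 0.11, adjusted p = 0.18). Scd1 ran from 0 to 3.37 CPM (median 0.137), from 0 to 3.23 CPM (median 0.143) and from 0 to 1.29 CPM (median 0) and was under the count filter, as was Elovl6. In all, TNF and GM-CSF differed for 7 of 37 members, 3 higher and 4 lower with TNF, against 8.25% and 7.96% of all genes. Scaled by total counts alone, they were 2 and 5, with 694 of all genes higher and 1514 lower, where TMM gave 933 and 900. With no limit on the fold, 10 were higher and 8 lower, against 15.9% and 14.9%. The cytokines share their medium samples, so their values against medium are set side by side only.

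**Figure D5:**
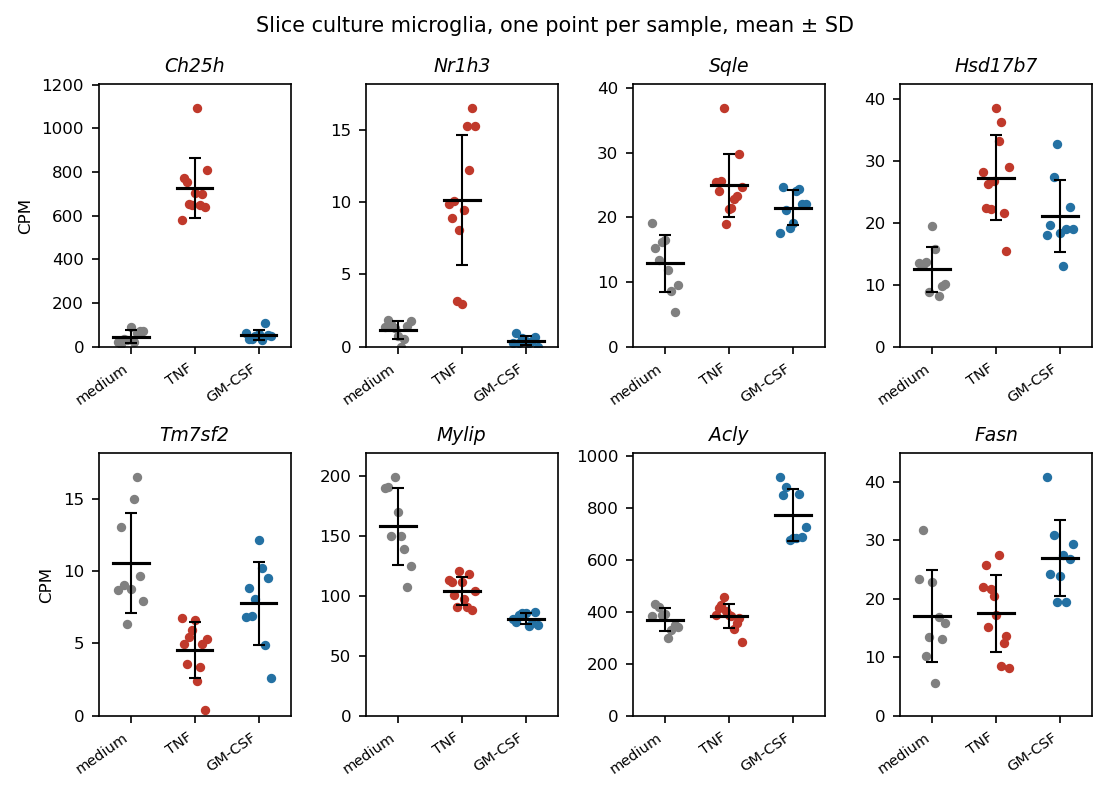
CPM of 8 genes in slice microglia with medium (grey, n = 9), TNF (red, n = 11) and GM-CSF (blue, n = 9), with a point per sample and bars for the mean and SD, each axis from 0. Ch25h and Nr1h3 stand high with TNF, Acly stands high with GM-CSF, and Mylip is lower with both.

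Other genes of these pathways, 98 in all, were counted in the same fits. Among them, Insig2 and Hacd1 lie in the runs of genes at 0 in brain tissue. Their 0 there is not read as a level, but they were not taken out of the counts. With LPS in adult microglia, 14 of 68 above the count filter rose and 7 fell, against 14.4% of all genes as higher and 27.4% in either direction. Increases were seen in Soat2, the other cholesterol acyltransferase, at 3.22 (SE 0.24, adjusted p = 2.19e-06), and in Cd36, a fatty acid scavenger receptor, at 2.39 (SE 0.31, adjusted p = 6.24e-05). The largest decreases were in Thrsp, a lipogenic regulator, at -2.52 (SE 0.39), Mgll, which cleaves monoacylglycerol, at -1.87 (SE 0.14), and Gpr155, a lysosomal cholesterol sensor, at -1.22 (SE 0.09). In brain tissue 0 of 85 rose by edgeR and 2 fell, among them Pltp, a phospholipid transfer protein, at -1.05 (SE 0.13, adjusted p = 0.00074), against 2.63% and 0.550% of all genes. DESeq2 gave 1 higher and limma-voom 0, and 13 were higher at an unadjusted p under 0.05 by edgeR. With no limit on the fold, 4 were higher and 11 lower there at an adjusted p under 0.05, against 6.06% and 4.10% of all genes. The LPS effect differed between microglia and brain tissue for 14 of 89 as higher and 7 as lower, against 9.10% as higher and 19.7% in either direction over all genes, among them Cd36 at 2.35 (SE 0.48) and Fabp5, a fatty acid carrier, at 2.19 (SE 0.25) as higher and Thrsp at -2.42 (SE 0.44), Mgll at -1.86 (SE 0.15) and Pnpla2, a triglyceride lipase, at -1.72 (SE 0.43) as lower.

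In slice microglia, TNF raised 5 of 74 such genes and lowered 11, against 9.10% and 11.7% of all genes, while GM-CSF raised 4 and lowered 10, against 4.84% and 5.96%. TNF raised Fabp3, a fatty acid carrier, by 2.20 (SE 0.22) and Soat2 by 1.04 (SE 0.24) on the log2 scale. The largest decreases with TNF were in Thrsp at -4.03 (SE 0.56), Gpr155 at -2.08 (SE 0.14) and Lrp1, a lipoprotein receptor, at -1.46 (SE 0.20). GM-CSF raised Elovl7, an elongase, by 4.19 (SE 0.72), Pparg, a nuclear receptor of lipid storage, by 3.28 (SE 0.46) and Hacd1, a dehydratase of fatty acid elongation, by 0.83 (SE 0.17). Its largest decreases were in Thrsp at -1.88 (SE 0.53), Acss2, which makes acetyl-CoA from acetate, at -1.09 (SE 0.26) and Fabp3 at -1.02 (SE 0.24). TNF against GM-CSF gave 8 higher and 8 lower of 74, against 8.25% and 7.96% of all genes, among them Fabp3 at 3.22 (SE 0.24) and Acss2 at 1.59 (SE 0.25) as higher and Pparg at -4.02 (SE 0.45), Elovl7 at -3.84 (SE 0.65) and Thrsp at -2.15 (SE 0.56) as lower.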

How the data were processed

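RNA was sequenced from slice microglia, adult microglia and brain tissue. For slice microglia the authors deposited whole counts per gene, made with STAR 2.7.0a and featureCounts of Subread 1.6.4 on mm10 per the submitters' processing notes. For adult microglia and brain tissue the authors deposited expected counts, which were rounded to whole numbers, and the aligner and counter behind them were not given in the sources used here. The 92 rows of the brain table that name no gene held 0 counts and were left out.

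Genes were kept by filterByExpr (minimum count 10, minimum total count 15), libraries were scaled by TMM, and groups were compared with the quasi-likelihood test of edgeR 4.0.16 in R 4.3.3, with Benjamini-Hochberg adjustment over all genes tested. The 3 slice groups shared a fit, each adult table was fitted alone, and the LPS effects were compared in a fit of both. The steps were run on simulated counts, with changes well over the fold limit in well-counted genes and a smaller spread than in slices. That run does not bear on calls near the fold limit or at low counts. DESeq2 1.42.0, limma 3.58.1 (voom), other scalings, filters, fold limits, title codes and left-out samples were tried as alternatives. Levels per kb are CPM over merged exon length.

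The members and lists were chosen with earlier results of these data known. Values by sample are given for the 5 members with the largest change in each direction of each treatment among those that passed, and for 11 regulators and key enzymes. Of the other pathway genes, the 3 with the largest change in each direction are named, apart from a few that are not reported here.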

Additional observations from a re-analysis of the deposited data

Results flagged for a closer look

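The LPS effect differed between adult microglia and brain tissue, by the test of the difference itself, for 18 members, each higher in microglia. On the log2 scale, the difference was 0.70 for Pmvk, 1.92 for Mvd, 1.48 for Idi1 and 1.11 for Fdps in the mevalonate pathway. From squalene to cholesterol it was 2.19 for Sqle, 0.73 for Lss, 1.12 for Cyp51, 0.72 for Msmo1, 0.67 for Nsdhl, 1.49 for Hsd17b7, 0.80 for Ebp and 1.38 for Dhcr7. It was 0.75 for Srebf2 and 1.52 for Insig1 among the sensors, 1.44 for Acaca, 1.48 for Fasn and 0.84 for Elovl5 among the fatty acid genes, and 0.99 for Stard4. The call of Stard4 was lost with limma-voom, with median-ratio size factors, with no low-count filter and with the replicate block.

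A single sample stood apart from its group in 7 of 87 groups of 4 to 10 samples, where chance alone marks about 1 in 20. Abca1 was at 49.95 CPM in untreated brain tissue replicate 2, with the next sample at 56.39 CPM. Ch25h was at 109.4 CPM in GM-CSF slice replicate 7 (next 61.29 CPM), and Fads1 at 125 CPM in GM-CSF slice replicate 3 (next 99.0 CPM). Hsd17b7 was at 7.62 CPM in LPS microglia replicate 2 (next 10.43 CPM), and Srebf1 at 106.3 CPM in LPS microglia replicate 1 (next 75.29 CPM). Scd1 was at 3.365 CPM in medium slice replicate 8 (next 0.4764 CPM), and Scd2 at 1474 CPM in LPS brain tissue replicate 3 (next 1628 CPM).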

How the results depend on the processing

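Of 50 results of members that passed the test and were followed gene by gene, 24 passed under every alternative run. Under the alternatives run, 561 of 561 values of these results kept their direction, and 61 lost the call. With LPS in adult microglia, the calls of Pmvk, Idi1, Fdps, Cyp51, Ebp, Dhcr7, Elovl5 and Soat1 were not followed in this way. With no fold limit the members passing were 16 for TNF, 11 for GM-CSF, 18 for TNF against GM-CSF, 25 for LPS in microglia and 24 in brain tissue. With a fold limit of 2 they were 2 for GM-CSF, 3 for TNF against GM-CSF, 6 for LPS in microglia, 1 in brain tissue and 10 for the difference between both. GM-CSF gave 3 in the samples with title codes 2A and 2B. Leaving out each sample in turn gave 14 to 17 members in microglia and 3 to 7 in brain tissue, with 7 without untreated replicate 4. In microglia without PBS replicate 4, 15 members were higher and 1 was lower. Without TNF replicate 6, which had the highest neutrophil markers (116 CPM, the next at 22.5 CPM), an alternative chosen after seeing the data, TNF gave 7 and TNF against GM-CSF 7.

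Values that changed sign had not passed the test: for TNF, Srebf1 (0.009 with codes 2A and 2B), Hmgcs1 (-0.039 with total counts, -0.006 with the replicate block, -0.063 with codes 1A and 1B) and Fasn (-0.029 with total counts, -0.083 with codes 2A and 2B), and for GM-CSF, Srebf2 (-0.053 with codes 1A and 1B) and Ch25h (-0.055 with codes 2A and 2B). The causes were not tested. Scaling by total counts moved the median of all genes from -0.02 to -0.19 for TNF against GM-CSF and from -0.04 to 0.07 for GM-CSF, and the members' split from 3 higher and 4 lower to 2 and 5, and from 4 and 2 to 4 and 3 for TNF.

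Same-numbered samples did not deviate together throughout (correlations from -0.078 to 0.184), so the numbers were not read as pairing. Against medium, all 9 pairs were above 0 for TNF (0.0412 to 0.184) and for GM-CSF (0.0168 to 0.111). The biological coefficient of variation of the slice samples was 0.2807 in the main fit. It was 0.2556 with the replicate block and 0.2585 with the title code as a covariate. With the replicate block, 5, 7, 5, 16, 5 and 17 members passed for TNF, GM-CSF, TNF against GM-CSF, LPS in microglia, LPS in brain tissue and the difference. Depth limits Ch25h in brain tissue, Nr1h3 in slices, and Scd1, Fads2 and Elovl6 in sorted cells.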
